A study of Mus musculus with 4 samples.

Results

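The phospholipase A2 and eicosanoid enzymes described here were 9 genes, Pla2g2d, Pla2g2e, Pla2g2f, Pla2g5, Pla2g4a, Ptgs1, Ptgs2, Alox5 and Alox5ap. Their readings were those of all probes that the deposited table assigns to these symbols, each taken separately, which gave 12 of the 55681 gene probes and 9 of the 24561 symbols on the array. The genes were chosen by function, with their signals and log2 ratios to L1210-control in these same 4 arrays known, so their differences are given as a description, without a test. L1210 cells are a lymphocytic leukemia line of DBA mice. The lines L1210-Fbxw11a, L1210-Fbxw11c and L1210-Fbxw11d are labelled as overexpressing a transcript variant of Fbxw11, the substrate-binding F-box subunit of an E3 ubiquitin ligase, and L1210-control carried the control construct. All 4 lines were made by viral infection and sorted for GFP, each was 1 stable population, and no further treatment is named for any. They are called the control, Fbxw11a, Fbxw11c and Fbxw11d lines here. RNA of each line was hybridised to 1 array, so 1 array stands for each group and differences between lines have no replicate check.

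Phospholipases A2 cut a fatty acid, often arachidonic acid, from membrane phospholipids. The cytosolic enzyme encoded by Pla2g4a acts on membranes inside the cell, and Pla2g2d, Pla2g2e, Pla2g2f and Pla2g5 encode secreted enzymes whose genes lie together on mouse chromosome 4. Free arachidonic acid is turned into prostaglandins by the cyclooxygenases encoded by Ptgs1, the constitutive form, and Ptgs2, the inducible form, or into leukotrienes by the lipoxygenase Alox5 with its helper protein Alox5ap.

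Across the 12 probes, Pla2g2e was higher than in the control line in all 3 variant lines, by 2.54-, 2.18- and 2.25-fold on the brighter of its probes. Ptgs2 was lower in all 3 lines, by 1.83-, 1.78- and 1.72-fold. Pla2g2d was higher by 2-fold or more in the Fbxw11c and Fbxw11d lines but not in the Fbxw11a line. Pla2g5, Pla2g2f, Ptgs1 and Alox5ap stayed within 2-fold of the control line in every line. Pla2g4a was well above background in the control line alone, and Alox5 was not well above background in any line.

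The probe sequences show what each reading rests on. Each probe was 60 bases long, and none of the 12 shared a run of 20 bases, on either strand, with a probe of another symbol. A pair of probes is shown whole, because each reads a second place in a gene that a probe further along the transcript also reads. The Pla2g5 probe at base 532 covers 750 bases of the genome and so crosses a splice junction.
Pla2g2e probe at base 489: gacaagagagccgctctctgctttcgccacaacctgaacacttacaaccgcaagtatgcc
Pla2g5 probe at base 532: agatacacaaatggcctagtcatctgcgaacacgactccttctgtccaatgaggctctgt
The poly(A) signal hexamer AATAAA, searched on the probe strand, was found in 3 of the 12 member probes and in 10.1% of the 55681 gene probes. These 3 probes are shown by a window of 30 bases with the hexamer in capitals.
Pla2g2d probe at base 1186: caaagagccctcttAATAAAcaactttcac
Pla2g2f probe: cttccccaaactAATAAAaaccctcctgtc
Pla2g5 probe at base 2050: tttagtgttcaaacattttctaAATAAAgc
The probes of Pla2g2e at base 780 and of Ptgs2, which differed one way in all 3 variant lines, held no such hexamer, and their first 30 bases are shown in lower case.
Pla2g2e probe at base 780: ctcacaagatccactaagtcgcctctggca
Ptgs2 probe: tttttgaaaagtttgaagttagaacttagg

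Signals are background-corrected intensities in arbitrary units, brought to the scale of the control array, and the value after ± is the scanner software's error for the spot. A signal cannot be set against that of another probe, since probes differ in brightness for the same amount of RNA. Comparisons needed a reading flagged by the scanner software as well above background on 1 or both of the arrays, and the study's fold change of 2 served as the threshold. Fewer cells expressing a gene and less of its RNA per cell cannot be told apart in such bulk RNA. The Fbxw11d array was alone on slide 2 and the other 3 arrays were on slide 1, so slide and variant cannot be told apart for that line. E1A spike-in RNAs, control transcripts of the array system, differed from the control array by 0.13 ± 0.06, 0.15 ± 0.10 and -0.59 ± 0.09 (log2, SD, n = 8 probes) on the Fbxw11a, Fbxw11c and Fbxw11d arrays after scaling. Scaling to these RNAs, an alternative chosen after the data were seen, moved the median log2 ratio of all measured probes to -0.14, -0.16 and 0.58. The 2 probes of Fbxw11 itself, at bases 3692 and 3803 of its transcript, gave log2 ratios between 0.025 and 0.31 and did not show the overexpression that the lines are named for. Whether these bases lie within the introduced sequence is not given in the sources used here. The study checked the lines by RT-PCR and western blotting, which are not analysed here. The background flag was passed on all 4 arrays by 4 of 8 B-lineage and 4 of 5 T-lineage marker genes. So it was by 5 of 6 genes for macrophages and monocytes, 3 of 4 for granulocytes and 3 of 4 for fibroblasts. The leukocyte marker Ptprc and 1 of 5 mast cell markers passed it as well. It was passed on no array by Rag1, Ebf1, Cd79b, Igll1 (B lineage), Cd3g (T lineage), Lyz2 (macrophages), Fcer1a and Tpsab1 (mast cells).

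**Figure D1:**
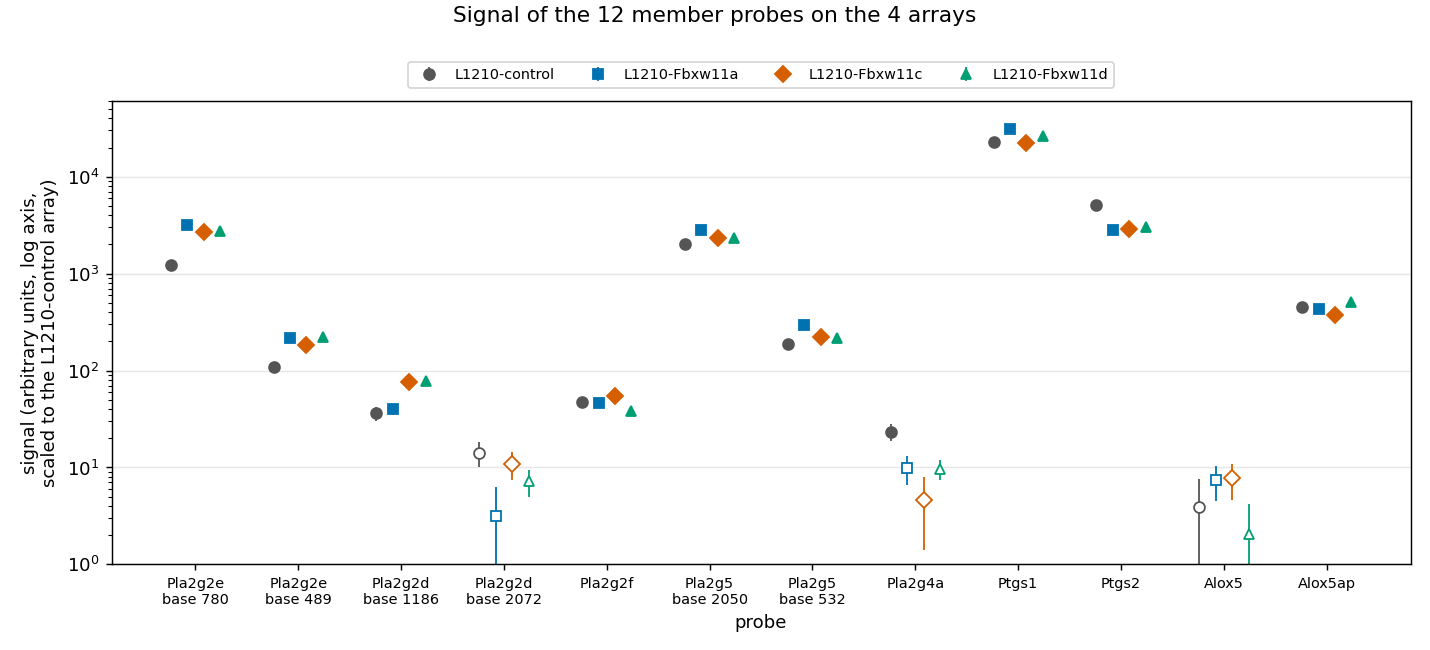
Signal of each of the 12 member probes (log axis, arbitrary units on the scale of the control array) on the 4 arrays, with the scanner error of the probe as the bar, cut off at 1. Open symbols are readings that were not well above background. For the Pla2g2e probe at base 780 the 3 variant lines lie between 2697 and 3141 against 1239 in the control line, and for Ptgs2 between 2818 and 2995 against 5155.

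The secreted phospholipase Pla2g2e was read by a probe at base 780 of its transcript (chromosome 4, 138438659 to 138438718, mm9) and by one at base 489 (138438368 to 138438427). The base 780 probe gave 1239 ± 124 in the control line, 3141 ± 314 in the Fbxw11a line, 2697 ± 270 in the Fbxw11c line and 2786 ± 279 in the Fbxw11d line. The 3 variant lines lay above the control line. Their log2 ratios to the control line were 1.34, 1.12 and 1.17, each with a scanner error of 0.20, and no pair of variant lines differed by more than 1.16-fold with this scaling. The base 489 probe gave 108 ± 11.5 in the control line, 217 ± 21.9 in the Fbxw11a line, 182 ± 18.5 in the Fbxw11c line and 221 ± 22.2 in the Fbxw11d line. Both probes of Pla2g2e thus placed the 3 variant lines above the control line. The base 489 folds were smaller, at 2.00, 1.68 and 2.05, so that the Fbxw11c line passed the 2-fold threshold on 1 probe only. Normexp is a model-based correction of each spot for its local background, here with an offset of 50 added to the signals. With it the base 489 log2 ratios were 0.75, 0.52 and 0.67. The base 780 ratios stayed past 2-fold at 1.26, 1.06 and 1.29. With spike-in scaling the base 780 ratios were 1.21, 0.97 and 1.76 and the base 489 ratios 0.87, 0.60 and 1.62, so that the Fbxw11d line stood apart from the Fbxw11c line, by over 2-fold on the base 489 probe (a log2 ratio of -1.03 of the Fbxw11c to the Fbxw11d line). Without detrending the base 489 ratio in the Fbxw11d line was 0.997.

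Pla2g2d encodes a secreted phospholipase best known from lymphoid tissue. Its probe at base 1186 (chromosome 4, 138336981 to 138337040) gave 36.0 ± 5.53 in the control line, 40.2 ± 5.32 in the Fbxw11a line, 75.3 ± 8.21 in the Fbxw11c line and 77.9 ± 8.06 in the Fbxw11d line. The control line and the Fbxw11a line formed the lower pair, and their readings differed by less than the scanner error. The log2 ratios to the control line were 0.16 ± 0.29, 1.06 ± 0.27 and 1.11 ± 0.27. The Fbxw11a line was 1.87-fold lower than the Fbxw11c line and 1.94-fold lower than the Fbxw11d line. Whether these gaps reached 2-fold depended on the processing, since the gap to the Fbxw11d line was past it with quantile normalization, median centring, the deposited values, no detrending and spike-in scaling (log2 ratios from -1.67 to -1.11), and that to the Fbxw11c line with the deposited values and no detrending (-1.01 and -1.03). These signals were dim, and with normexp and its offset of 50 the Fbxw11c and Fbxw11d lines fell to log2 ratios of 0.43 and 0.35. The background model and the offset were not tested apart. With spike-in scaling the ratio of the Fbxw11c line was 0.91. The Pla2g2d probe at base 2072 had signals from 3.13 to 14.2, none of them well above background, and gave no comparison.

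Pla2g5, a secreted phospholipase made by macrophages among other cells, was read by 2 probes as well. Its probe at base 2050 (chromosome 4, 138355185 to 138355244) gave 2004 ± 200 in the control line, 2831 ± 283 in the Fbxw11a line, 2320 ± 232 in the Fbxw11c line and 2336 ± 234 in the Fbxw11d line. Its probe at base 532 (138356545 to 138357294) gave 187 ± 19.1, 293 ± 29.5, 222 ± 22.4 and 216 ± 21.7 in the same order. The Fbxw11a line was the highest line on both probes with this scaling, while with spike-in scaling the Fbxw11d line was, at log2 ratios of 0.81 and 0.80 against 0.37 and 0.52 in the Fbxw11a line. The folds over the control line were 1.41 and 1.57 in the Fbxw11a line, 1.16 and 1.19 in the Fbxw11c line and 1.17 and 1.16 in the Fbxw11d line. The folds of the Fbxw11c and Fbxw11d lines were near the scanner error of the ratio, which was 0.20 to 0.21 on the log2 scale. Pla2g2f, a secreted phospholipase known from the epidermis (chromosome 4, 138306448 to 138306507), gave 47.3 ± 6.08 in the control line and 46.2 ± 5.52, 54.7 ± 6.32 and 38.1 ± 4.34 in the variant lines. Its log2 ratios of -0.034, 0.21 and -0.31 differed in sign between lines, and the last was 0.27 with spike-in scaling.

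Pla2g4a encodes the cytosolic phospholipase A2 that supplies arachidonic acid for eicosanoids in many cells. Its probe (chromosome 1, 151676814 to 151676873) gave 23.2 ± 4.55 in the control line, 9.76 ± 3.24 in the Fbxw11a line, 4.67 ± 3.25 in the Fbxw11c line and 9.71 ± 2.29 in the Fbxw11d line. The control reading was the only one well above background, and it lay just above 18.1, the dimmest reading among that array's probes whose spots were all well above background. The same limit, brought to the scale of the control array, was 14.4, 14.9 and 10.4 on the Fbxw11a, Fbxw11c and Fbxw11d arrays. Set against these limits, Pla2g4a was at least 1.62-fold lower in the Fbxw11a line, at least 1.56-fold lower in the Fbxw11c line and at least 2.24-fold lower in the Fbxw11d line. This bound of -1.16 on the log2 scale in the Fbxw11d line fell short of 2-fold with normexp (-0.61), spike-in scaling (-0.57), quantile normalization (-0.95), median centring (-0.94) and the deposited values (-0.94). Since the probe was compared only through its control reading, its direction was fixed by the filter on dim probes.

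Ptgs1, the constitutive cyclooxygenase (chromosome 2, 36107644 to 36107703), gave 23025 ± 2302 in the control line, 30945 ± 3094 in the Fbxw11a line, 22292 ± 2229 in the Fbxw11c line and 26131 ± 2613 in the Fbxw11d line. The log2 ratio in the Fbxw11a line was 0.43, and the ratios of -0.047 and 0.18 in the other 2 variant lines were within the scanner error of 0.20. With spike-in scaling the Fbxw11d line was the highest line, at 0.77 against 0.30 in the Fbxw11a line. The sign in the Fbxw11c line turned to 0.025 with median centring.

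Ptgs2, the inducible cyclooxygenase, had a probe printed on 10 spots (chromosome 1, 151954744 to 151954803), which gives a spread within each array. On the control array the 10 spots had a mean signal of 5155 and ran from 4970 to 5407. On the Fbxw11a array the mean was 2818 with a range of 2548 to 3046, on the Fbxw11c array 2895 with a range of 2747 to 3149 over 9 spots, and on the Fbxw11d array 2995 with a range of 2771 to 3236. The SD between spots was 0.041, 0.083, 0.063 and 0.073 on the log2 scale. No spot of a variant line reached the lowest spot of the control line, while the spots of the 3 variant lines overlapped each other. Spots of 1 array share the RNA and the labelling, so this spread leaves out differences between cultures. The log2 ratios to the control line were -0.87, -0.83 and -0.78, short of the 2-fold threshold in every line. With spike-in scaling they were -1.002, -0.99 and -0.20, which is just past 2-fold in the Fbxw11a line, and the size in the Fbxw11d line depended on the scaling. The summed signal of the 5 measured macrophage and monocyte markers was also lower in the variant lines, at 14533.5 in the control line and 12281, 11071 and 11668.5 in the Fbxw11a, Fbxw11c and Fbxw11d lines, and its part in the Ptgs2 difference was not tested. With spike-in scaling the sum in the Fbxw11d line was 17532.5, above that of the control line, and 1 of the 5 markers read below the control line there. This sum is weighted by probe brightness, and Cd68 and Itgam made up 85.3% of it in the control line. Each marker was counted by its brightest probe, as in the sum. With the 75th percentile scaling, 4 of the 5 markers read below the control line in all 3 variant lines. Emr1, the macrophage antigen F4/80, had log2 ratios of 0.91, -0.44 and 0.91. Itgam was only just lower, at -0.13, -0.095 and -0.040. Other probes went both ways. Those of Csf1r at base 1841 and Cd68 at base 443 were lower in all 3 lines. Those of Itgam at bases 270 and 3410 differed in sign between lines. As bounds, Csf1r at base 2871 was higher in the Fbxw11a and Fbxw11c lines and Emr1 at base 3160 in the Fbxw11d line.

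**Figure D2:**
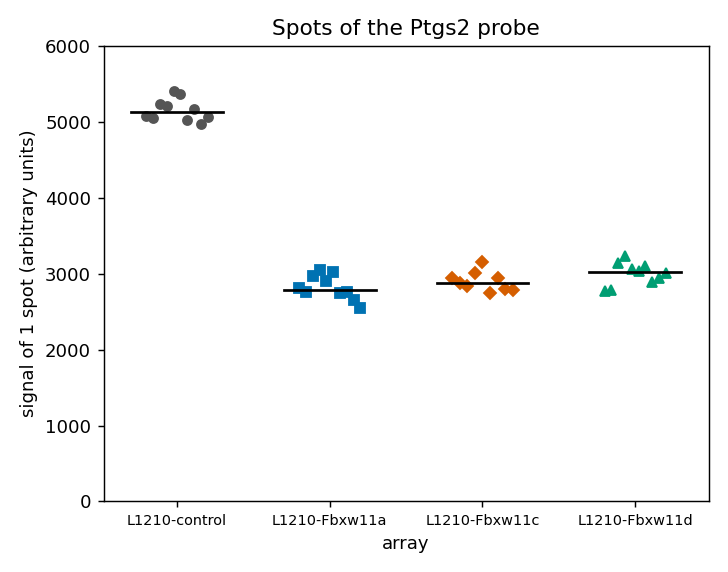
Signal of each spot of the Ptgs2 probe (arbitrary units on the scale of the control array, axis from 0) on the 4 arrays, with 10 spots each and 9 on the Fbxw11c array, and the median as a line. The lowest control spot, 4970, lies above the highest spot of any variant line, 3236.

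Alox5, the arachidonate lipoxygenase that starts leukotriene synthesis (chromosome 6, 116360326 to 116360385), gave signals of 3.95, 7.49, 7.72 and 2.07 on the control, Fbxw11a, Fbxw11c and Fbxw11d arrays. None was well above background and no comparison was made. Alox5ap, which presents arachidonic acid to Alox5 (chromosome 5, 150099347 to 150099406), was well above background on every array. Its signals were 452 ± 45.3 in the control line, 431 ± 43.2 in the Fbxw11a line, 377 ± 37.8 in the Fbxw11c line and 514 ± 51.4 in the Fbxw11d line. The log2 ratios of -0.066, -0.26 and 0.19, with an error of 0.20 each, lay on both sides of the control line. With spike-in scaling the ratio in the Fbxw11d line was 0.77, and the Fbxw11c line was then lower than the Fbxw11d line by over 2-fold (-1.19).

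**Figure D3:**
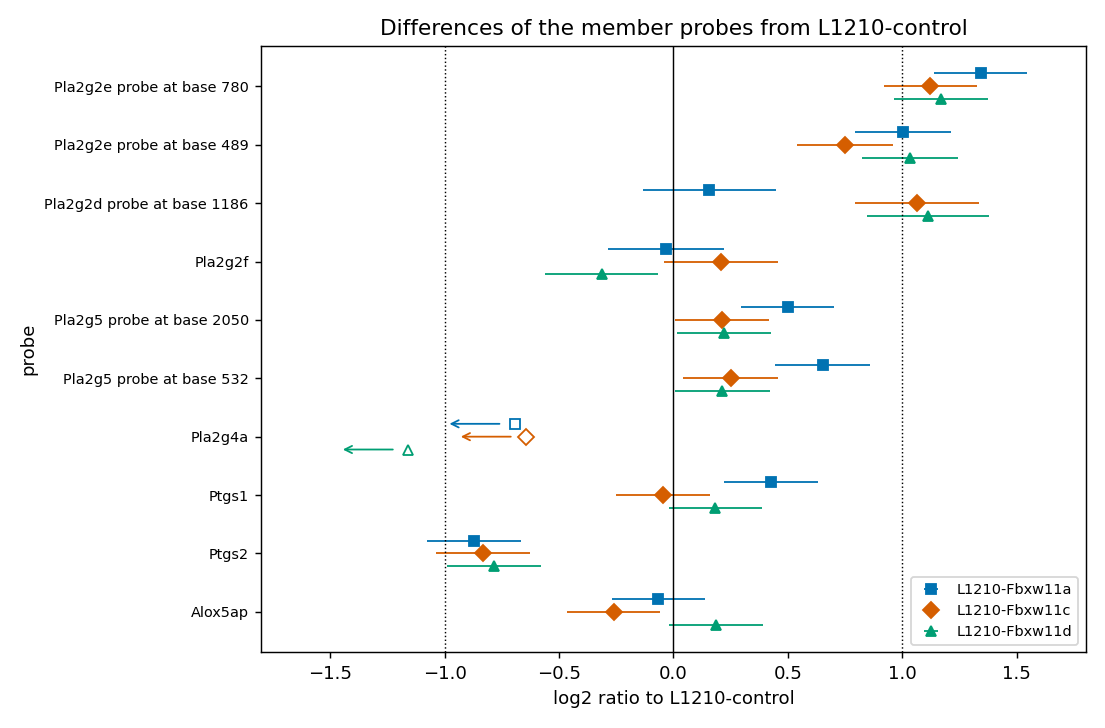
Log2 ratio of each member probe to the control line in the 3 variant lines, with the scanner error of the ratio as the bar and dotted lines at a 2-fold difference. Open symbols with arrows are bounds, where the variant reading was not well above background. Both Pla2g2e probes lie on the right, from 0.75 to 1.34, and Ptgs2 lies on the left, from -0.87 to -0.78.

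Of the 12 member probes, 10 could be compared with the control line and 9 were well above background on all 4 arrays. In the Fbxw11a line, 2 of the 10 were higher by 2-fold or more, both probes of Pla2g2e, and none was lower, where 2.71% of all compared probes were higher and 2.42% lower. With spike-in scaling 1 was higher, the base 780 probe of Pla2g2e, and 1 was lower, Ptgs2. In the Fbxw11c line, 2 were higher, 1 probe of Pla2g2e and 1 of Pla2g2d, and none was lower, against 1.69% and 2.79% of all compared probes. In the Fbxw11d line, 3 were higher, both probes of Pla2g2e and 1 of Pla2g2d, against 0.985% of all compared probes. Pla2g4a was lower, against 6%, but its direction was fixed by the filter on dim probes. With the flag required on both arrays 0 were lower, and the call also ended under the alternatives given above for Pla2g4a. The probes of a gene are not independent readings, and the 3 comparisons share the control array. The background itself depended on the scaling in the Fbxw11d line, where all called probes were 385 higher and 2344 lower, 45 and 1059 with normexp, 695 and 1624 with quantile normalization, 691 and 1603 with the authors' deposited log2 values, 847 and 1538 with median centring, and 3871 and 863 with spike-in scaling. The median log2 ratio of the 9 measured member probes was 0.43, 0.21 and 0.21 in the 3 lines. By the brightest probe of each gene, the medians of the 7 measured genes were 0.16, 0.21 and 0.19. Over all measured probes the medians were -0.011, -0.0031 and -0.0072. The members were chosen with their ratios known, so no shift of the set is read from this. Between the variant lines no member probe differed by 2-fold, where 4.93% of all compared probes did between the Fbxw11a and Fbxw11c lines, 7.34% between the Fbxw11a and Fbxw11d lines and 5.28% between the Fbxw11c and Fbxw11d lines. At 1.5-fold in all 3 lines, both Pla2g2e probes were higher and Ptgs2 was lower, where 0.702% and 1.33% of the 33071 probes well above background on all 4 arrays were. These calls ended for the base 489 probe of Pla2g2e in the Fbxw11c line with normexp (0.52 on the log2 scale) and for Ptgs2 in the Fbxw11d line with median centring (-0.57) and spike-in scaling (-0.20).

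The genes of the secreted enzymes are neighbours, and the member probes of Pla2g2f, Pla2g2d, Pla2g5 and Pla2g2e span 132.3 kb of chromosome 4. With 100 kb on either side, 16 probes lay in this window. The probes of Pla2g2c and Pla2g2a, further secreted phospholipases of the cluster, were not well above background on any array. Outside the member genes, Otud3, a deubiquitinase gene 12.6 kb beyond Pla2g2e, had log2 ratios of -0.07, 0.93 and 0.47. On the other side, 4930563F15Rik at 203.8 kb had 0.51, 0.53 and 0.48, and Ubxn10 at 163.9 kb had 0.17, 0.010 and 0.34. A probe without a symbol at 63.7 kb, between Pla2g5 and Pla2g2e, had 0.54, 0.46 and 0.38. Another, at 11.8 kb, was at least 3.60 higher on the log2 scale in the Fbxw11a line. The differences in the cluster were thus unequal from gene to gene, and the base 780 probe of Pla2g2e was the only one past 2-fold in all 3 lines, which it was not in the Fbxw11c line with spike-in scaling (0.97).

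**Figure D4:**
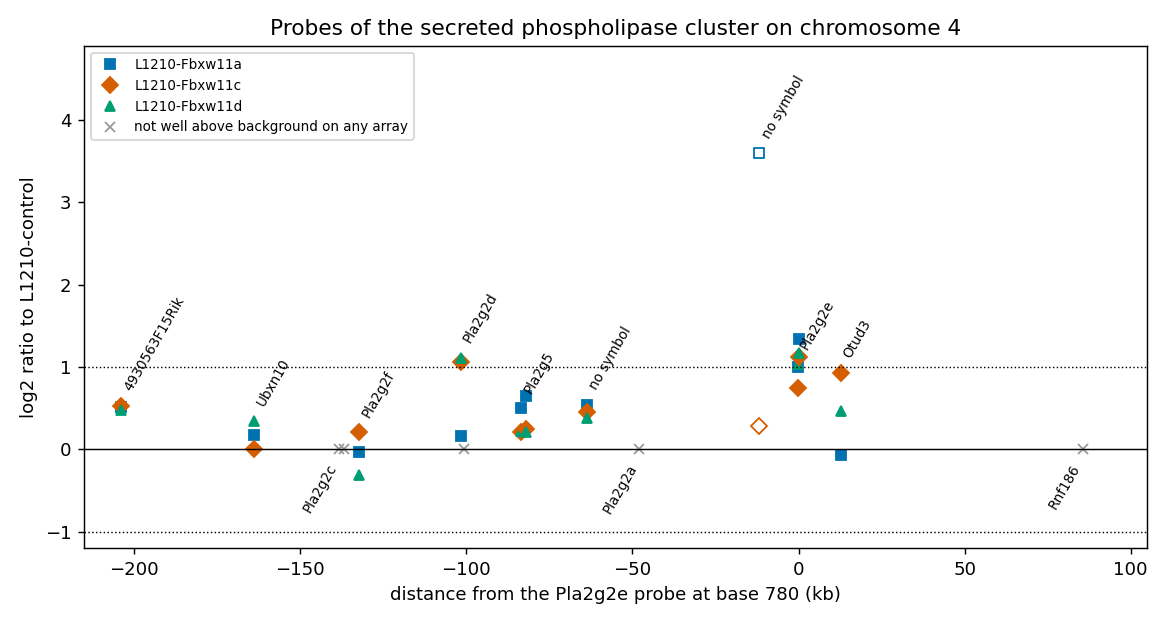
Log2 ratio to the control line of the 16 probes around the secreted phospholipase cluster, by distance in kb from the Pla2g2e probe at base 780, with dotted lines at a 2-fold difference. Open symbols are bounds, crosses are probes not well above background on any array, and "no symbol" marks probes without a gene symbol in the deposited table. The Pla2g2e probes lie from 0.75 to 1.34 and the Pla2g5 probes from 0.21 to 0.65.

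The regions around the transcription starts were searched for motifs in RefSeq windows on GRCm38.p6, from 250 bases before to 50 after each start. Of the 9 genes, 8 had a window, 10 in all, since Pla2g4a and Pla2g5 had several starts. On both strands, TGACTCA or TGAGTCA, the core bound by AP-1, was found in the Pla2g2e window alone, at 2 places, while 5.20% of the 32851 windows held it and 0.222% held it at 2 or more places. The E-box CACGTG was found in the Ptgs2 window alone and in 7.15% of all windows. The NF-κB decamer was in none of the 10 windows and in 8.46% of all, and TATAAA, the last of the 4 motifs searched, was in 1 window, of Pla2g4a, and in 13.6% of all. These matches are a description of letters in the windows of the genes that differed one way by 1.5-fold or more in all 3 variant lines with the 75th percentile scaling, shown as 30 bases each with the motif in capitals. The Pla2g2e windows are chr4:138877844-138877873 and chr4:138877957-138877986, with the motif at 87 bases before the start and at base 27 after it, and the Ptgs2 window is chr1:150100036-150100065, all on the plus strand.
Pla2g2e before the start: agctgttcctaTGACTCAtggtttgaggcc
Pla2g2e after the start: tcagtagacggTGACTCAgagctgcagggt
Ptgs2: caccactacgtCACGTGgagtccgctttac

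The wider pathway was described through 68 further genes in 6 lists, all with a probe, of which 18 were well above background on none of the arrays and 42 on each of the 4. Counting the brightest probe of a gene, 2 of 47 compared genes were higher by 2-fold or more and 1 was lower in the Fbxw11a line, 1 of 47 was higher and 2 were lower in the Fbxw11c line, and 2 of 50 were higher and 4 were lower in the Fbxw11d line. The direction of the last split depended on the scaling, with 5 higher and 1 lower in the Fbxw11d line with spike-in scaling and 2 of each with quantile normalization and with median centring. These are 4.26% and 2.13%, 2.13% and 4.26%, and 4% and 8% of the genes compared, to be read against the shares of all compared probes given above, and each rests on 4 genes or fewer. With normexp only Ltb4r2 in the Fbxw11a line (1.44) and Pla2g4b in the Fbxw11d line (-1.45) stayed past 2-fold. The median log2 ratios of the measured genes were -0.0030, -0.060 and -0.019.

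The list of 20 other phospholipases A2 includes the receptor gene Pla2r1. Of the 20, 12 were measured in all lines, Pla2r1 among them. Pla2g7, the secreted enzyme that breaks down platelet-activating factor, had a reading of 25.03 in the control line, 36.4 in the Fbxw11a line, 65.9 in the Fbxw11c line and 60.1 in the Fbxw11d line. Its log2 ratios of 0.54, 1.40 and 1.26 put the Fbxw11c and Fbxw11d lines past 2-fold. These signals were dim, and with normexp the ratios in the Fbxw11c and Fbxw11d lines were 0.44 and 0.21. Pla2g4b, a further cytosolic phospholipase, was at 2644, 2544, 2309 and 849, which is a log2 ratio of -1.64 in the Fbxw11d line and of -0.055 and -0.20 in the others. Pla2g4c, also cytosolic, was lower by at least 1.27 on the log2 scale in the Fbxw11a line and had log2 ratios of -0.93 and -1.07 in the other 2 lines, the last short of 2-fold, from -0.99 to -0.48, with normexp, quantile normalization, median centring, the deposited values, no detrending and spike-in scaling. Pla2g12b was lower in the Fbxw11c line by at least 1.12 on the log2 scale. This bound was -0.99 without detrending and -0.43 with normexp. The Pla2g4c bound in the Fbxw11a line was -0.33 with normexp. Both genes were compared there only through the control reading, so their direction was fixed by the filter on dim probes. With the flag required on both arrays, 0 of the further pathway genes were lower in the Fbxw11a line and 1 in the Fbxw11c line. Pla2g4c and Pla2g12b lie outside the naming rule and are named after their values were seen. Pafah1b3, a catalytic subunit of an intracellular platelet-activating factor hydrolase, ranged from a signal of 7042 to 9646.

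None of the 11 measured genes of prostanoid synthesis and breakdown passed 2-fold in any line, where 5.13%, 4.48% and 6.98% of all compared probes did in the Fbxw11a, Fbxw11c and Fbxw11d lines, so that a count of 0 among 11 is near the background. With spike-in scaling Akr1b3 and Ptgr1 passed it in the Fbxw11d line (1.13 and 1.31). The list's median log2 ratios were 0.14, 0.058 and 0.0039. Akr1b3, an aldo-keto reductase with prostaglandin synthase activity, had log2 ratios of 0.00010, 0.25 and 0.54. Of 9 prostanoid receptors with a probe, 3 were measured, Ptger1, Ptger4 and Tbxa2r, too few to read against that share, and none passed 2-fold except Tbxa2r in the Fbxw11d line with spike-in scaling (1.11). Ptger1, a receptor for prostaglandin E, was at 71.3, 79.3, 62.6 and 71.0 in the control, Fbxw11a, Fbxw11c and Fbxw11d lines.

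Of 12 other lipoxygenases and leukotriene enzymes 8 were measured in all lines, and of 6 leukotriene and lipoxin receptors 2 were. Aloxe3, an epidermal lipoxygenase family member, was at 1034 in the control line and 602, 497 and 532 in the variant lines, with log2 ratios of -0.78, -1.06 and -0.96, of which the second was -0.98 with median centring. Its readings were below that of the control line in all 3 variant lines, as those of Ptgs2 were. Lta4h, the hydrolase that makes leukotriene B, ranged from 5223 to 6719, and the leukotriene-cleaving dipeptidase Dpep1 passed 2-fold in the Fbxw11d line alone, at a log2 ratio of -1.01, and was short of it, from -0.95 to -0.42, under the same 6 alternatives as Pla2g4c. Ltb4r2, a low-affinity leukotriene B receptor, was at 58.1 in the control line, 260 in the Fbxw11a line, 89.3 in the Fbxw11c line and 39.8 in the Fbxw11d line, with log2 ratios of 2.16, 0.62 and -0.55. Ltb4r1, the high-affinity receptor, was at 103, 102, 91.0 and 38.1, with a log2 ratio of -1.43 in the Fbxw11d line, which was -0.84 with spike-in scaling. Cysltr2, a receptor for cysteinyl leukotrienes named after its value was seen, had a log2 ratio of 1.04 in the Fbxw11a line. This was just short of 2-fold with quantile normalization (0.9987) and the deposited values (0.99), 0.91 with spike-in scaling and 0.30 with normexp. Its control signal of 19.1 lay just above 18.1, the limit of that array. In the Fbxw11d line Cysltr2 was not well above background and at least 1.83-fold lower than in the control line. That direction was fixed by the filter on dim probes.

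All 7 genes of arachidonate supply had a probe, and 6 were measured on all arrays. Fads2, a desaturase on the route to arachidonic acid, was at 61.0, 65.9, 95.7 and 142, with log2 ratios of 0.11, 0.65 and 1.22. Anxa1, long described as an inhibitor of phospholipase A2, had log2 ratios of 0.28, -0.054 and -0.25 on its brighter probe and 0.043, -0.21 and 0.27 on the other, so its probes disagreed in sign in the Fbxw11d line.

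**Figure D5:**
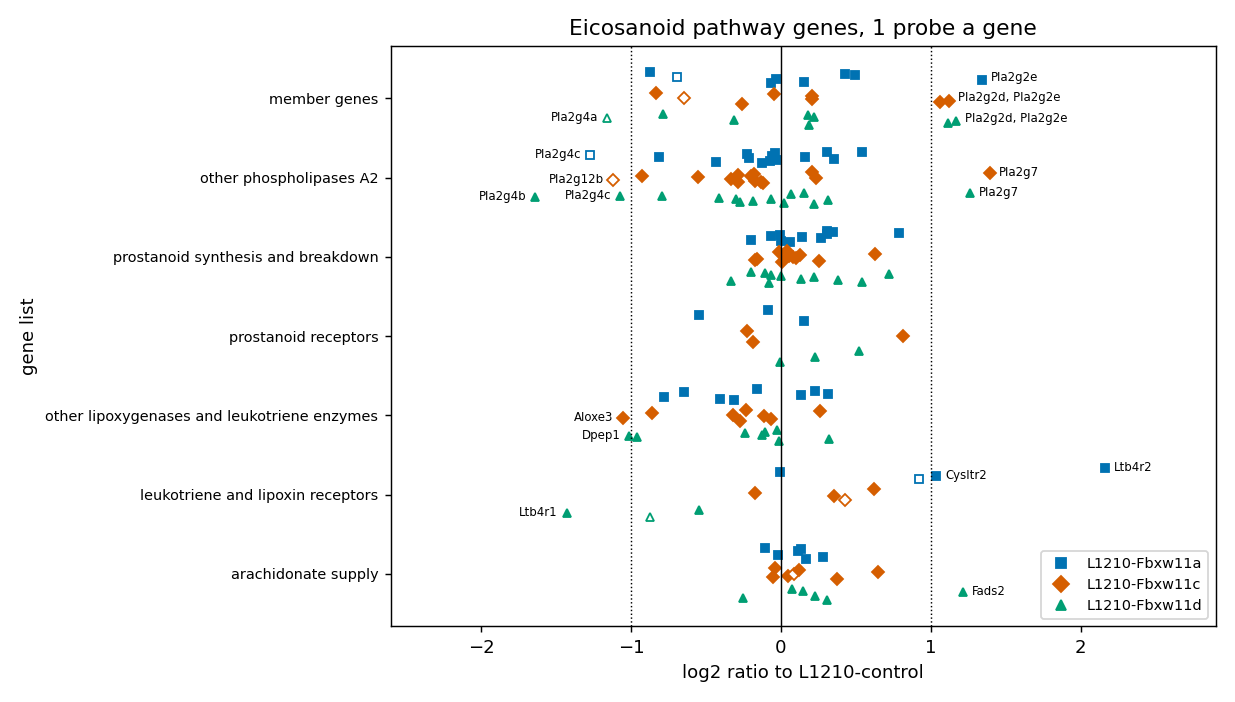
Log2 ratio to the control line of the member genes and the 6 lists of further pathway genes in the 3 variant lines, 1 symbol per gene by its brightest probe, with open symbols for bounds, dotted lines at a 2-fold difference and names for genes past it. Pla2g2e, by its brighter probe, is past 2-fold in all 3 lines, and no gene of the prostanoid lists is past it in any line with this scaling.

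Among the 16656 probes outside these lists that had a mean signal of at least 100 and passed the flag for being well above background on each of the 4 arrays, the 5 symbols with log2 ratios nearest to those of the Pla2g2e probe at base 780 were Olfr1312, Emp2, Anxa8, Hba-a1 and Wisp1. Their Euclidean distances over the 3 ratios were 0.019, 0.044, 0.065, 0.22 and 0.28. Likeness over 3 ratios that share the control array is a description only. Emp2, an epithelial membrane protein gene, had log2 ratios of 1.34, 1.13 and 1.13, and Anxa8, an annexin gene, had 1.33, 1.08 and 1.22. The study lists Emp2 and Wisp1 among genes regulated by the β-catenin/TCF signalling pathway. It reports both as higher in all 3 variant lines by real-time PCR.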

How the data were processed

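RNA from 4 L1210 lines was labelled with Cy3 and hybridised to 1 Agilent mouse array each. The authors deposited the Feature Extraction output of each array (version 10.7.1.1 in the file headers, 9.1 in the submitters' processing notes), with a background-corrected signal intensity per spot, and a table of log2 values that they normalized across arrays by a method not given in the sources used here, with symbols and mm9 coordinates. From the intensities, log2 minus the 75th percentile of each array over gene spots was used (620.2, 627, 672 and 954 for the control, Fbxw11a, Fbxw11c and Fbxw11d lines). Outlier spots (102 to 167 per array) were left out, spots of a probe were averaged, and no gene spot was saturated. The well-above-background flag of a probe required a share of 0.5 of its spots, which held for 62.5% to 68.7% of probes. Where it did not on 1 array, the fold is a bound against the higher of its own signal and the dimmest probe whose spots were all flagged (18.1, 14.4, 14.9 and 10.4 on the scale of the control array). Precision is limited by 1 array per line, which allowed no test.

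The members, gene lists and marker lists were chosen with earlier results of these data known. Pathway genes were named where measured on all 4 arrays and past 2-fold in 1 line, or brightest in their list; likeness was searched for the member probe with the largest least change. Alternatives were normexp (limma 3.58.1, offset 50), quantile normalization, median centring, the deposited log2 values, dim probes left unfiltered, probes flagged on both arrays alone, outlier spots kept and, added after the data were seen, signals before multiplicative detrending (on the Fbxw11d array the detrending factor was 1) and E1A spike-in scaling. Scripts ran in Python 3.11.15 (pandas 2.3.3, numpy 2.4.6) and R 4.3.3.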

Additional observations from a re-analysis of the deposited data

Results flagged for a closer look

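A probe without a gene symbol in the deposited table, 11.8 kb from the Pla2g2e probe at base 780 and described in the scanner files as a predicted gene, read 219.6 in the Fbxw11a line against 13.1 in the control line, where it was not well above background. It lies outside the comparisons of the member genes, and it was at least 3.60 higher on the log2 scale in the Fbxw11a line, while its signals in the Fbxw11c and Fbxw11d lines were 22.1 and 17.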

How the results depend on the processing

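The member counts in the Fbxw11a, Fbxw11c and Fbxw11d lines (2, 2 and 4 probes past 2-fold) became 1, 1 and 1 with normexp, and the counts of all probes fell from 1933, 1659 and 2729 to 520, 448 and 1104, those of other pathway genes from 3, 3 and 6 to 1, 0 and 1. Without a filter on dim probes the member count was 4 in the Fbxw11a line, all probes 5102, 4689 and 7290, and other pathway genes 7 in the Fbxw11a line and 11 in the Fbxw11d line. With a filter on both arrays, all probes fell to 979 in the Fbxw11a line and 835 in the Fbxw11c line, since fewer were compared. With E1A scaling the member count in the Fbxw11c line was 0, other pathway genes 5 there, and all probes in the Fbxw11d line 4734. Of all called probes, E1A scaling gave 797 higher and 1170 lower in the Fbxw11a line (1022 and 911 in the values reported) and 469 and 1378 in the Fbxw11c line (627 and 1032), and normexp gave 114 and 334 in the Fbxw11c line. Between variant lines, where no member probe was past 2-fold, 1 was between the Fbxw11a and Fbxw11d lines with quantile normalization, median centring, the deposited values, no detrending and E1A scaling, and 1 between the Fbxw11a and Fbxw11c lines with the deposited values and no detrending. With E1A scaling 2 were between the Fbxw11c and Fbxw11d lines (Alox5ap and the base 489 probe of Pla2g2e), and without a filter 2 were in each pair. The cause was not tested.

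Of 267 alternative values of the 30 member ratios, 2 changed sign, both of ratios short of 2-fold, and 25 moved by the scanner error or more. Leaving dim probes unfiltered, or requiring the flag on both arrays, could not move a ratio measured on both arrays. Keeping outlier spots left the ratios of probes with 1 spot unchanged. Values from these settings are part of the 267, so the counts say less about stability than their total implies. The slide as a block could not be fitted with 1 array a line and was not run. No paired analysis was possible because each line had 1 array. Dim probes, such as those of Pla2g4a and Pla2g2d, are limited by the signal over background.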
